A study of Mus musculus with 72 samples.

Results

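Genes that move, store and sense iron were followed in mouse liver, in mice with and without gut microbes and with and without the liver clock gene Bmal1. They were 10, chosen by symbol: Hamp, Hamp2, Tfrc, Trf, Slc40a1, Bmp6, Smad7, Id1, Fth1 and Ftl1. All 10 were found among the 55573 gene rows of the count table. The measurement was bulk RNA-seq of whole liver from 72 male C57BL/6 mice, 1 library per mouse. Mice were specific-pathogen free (SPF) or germ free (GF), and carried either Bmal1 fl/fl alone (WT) or Bmal1 fl/fl with Albumin-Cre, which deletes Bmal1 in hepatocytes (LKO). Both genotypes therefore carry the floxed allele, and Cre was present only in LKO mice. Each of the 4 arms (SPF WT, SPF LKO, GF WT, GF LKO) was sampled at zeitgeber time (ZT) 2, 6, 10, 14, 18 and 22 h, where ZT counts the hours from lights on, with 3 mice at each time and 18 libraries per arm. The labels give no age. GF mice were rederived and lived in isolators, so the lack of microbes and the isolator housing cannot be told apart.

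The liver sets how much iron reaches the blood. Hepatocytes secrete hepcidin, the product of Hamp, which binds the only known cellular iron exporter, ferroportin (Slc40a1), and causes its loss from the cell surface. Iron loading makes sinusoidal endothelial cells release BMP6, which acts through SMAD proteins in hepatocytes to raise Hamp, and Id1 and Smad7 respond to the same signal. Inside cells, iron regulatory proteins bind stem-loops called iron-responsive elements when iron is scarce. Bound at the 5′ end of a messenger they hold back translation of ferritin and ferroportin, and bound in the 3′ UTR of the transferrin receptor messenger (Tfrc) they protect it from decay. Transferrin (Trf) is the plasma carrier of iron made by hepatocytes, and ferritin, built of heavy (Fth1) and light (Ftl1) chains, is the storage shell.

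Hamp and its neighbour Hamp2 are near copies on chromosome 7. Their promoters are shown because the 2 genes moved in opposite directions between GF and SPF mice, although Hamp passed in LKO mice only. Each sequence runs from 250 bases before to 50 bases after the start site on the minus strand (RefSeq, GRCm38.p6, chr7:30943980-30944279 for Hamp and chr7:30924132-30924431 for Hamp2), 5′ to 3′. The first run of capitals marks the GGCGCC core of the BMP-responsive element in Hamp and the bases aligned to it in Hamp2, and the second marks a match to the STAT site TTCNNNGAA.
Hamp promoter: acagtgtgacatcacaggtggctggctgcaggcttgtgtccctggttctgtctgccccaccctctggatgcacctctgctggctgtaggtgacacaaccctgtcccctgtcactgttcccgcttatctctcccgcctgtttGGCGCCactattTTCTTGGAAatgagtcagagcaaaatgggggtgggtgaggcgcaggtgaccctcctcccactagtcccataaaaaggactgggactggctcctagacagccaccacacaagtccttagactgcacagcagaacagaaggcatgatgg
Hamp2 promoter: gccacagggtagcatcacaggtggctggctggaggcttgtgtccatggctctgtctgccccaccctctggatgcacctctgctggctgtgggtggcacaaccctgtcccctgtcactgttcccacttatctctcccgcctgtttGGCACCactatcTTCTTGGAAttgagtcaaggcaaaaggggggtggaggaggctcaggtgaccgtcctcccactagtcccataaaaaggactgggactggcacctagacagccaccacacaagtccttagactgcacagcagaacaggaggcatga
Over 297 aligned bases, 276 (92.9%) were identical, with no gap. The GGCGCC core lay 109 bases before the Hamp start site, whereas Hamp2 has GGCACC there, with 5 of 6 bases identical and no match to the motif. Both genes held the STAT site, 97 bases before the start in Hamp and 94 in Hamp2. Searched on both strands, GGCGCC occurred in 11.87% and TTCNNNGAA in 8.3% of 32851 promoter windows of the same length. GGCGCC also matched in a window of Tfrc (chr16:32608646-32608945), 89 bases before the start site of that window. Another window of Tfrc (chr16:32608872-32609171) held 0 matches. A match does not show that a protein was bound, and the part of these motifs in the changes was not tested. The canonical E-box CACGTG, which BMAL1 and CLOCK bind, was found in 7.15% of windows and among these genes in Bmp6 only, 127 bases before its start, out of the 6 genes with a window read here (Hamp, Hamp2, Ftl1, Bmp6, Tfrc and Fth1).

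Iron-responsive elements are shown because they separate the genes that the iron regulatory proteins act on. A search of protein-coding transcripts for a 27-base stem-loop with the CAGTGN loop (capitals) found a match in 4 of the 10 genes, against 68 of 21877 genes (0.31%). Positions are on GRCm38 (GENCODE vM21), and sequences run 5′ to 3′ along the transcript. The elements of Fth1 (chr19:9982733-9982759, plus strand), Ftl1 (chr7:45459780-45459806, minus strand) and Slc40a1 (chr1:45925466-45925492, minus strand) lie in the 5′ UTR. Tfrc (chr16, plus strand) had 4 matches in its 3′ UTR, at chr16:32631220-32631246, chr16:32631599-32631625, chr16:32631664-32631690 and chr16:32631711-32631737, given in that order. Elements that depart from the searched form would be missed.
Fth1: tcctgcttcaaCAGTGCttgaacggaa
Ftl1: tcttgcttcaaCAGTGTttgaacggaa
Slc40a1: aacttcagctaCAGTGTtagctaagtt
Tfrc element 1: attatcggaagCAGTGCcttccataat
Tfrc element 2: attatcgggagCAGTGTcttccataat
Tfrc element 3: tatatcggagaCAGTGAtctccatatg
Tfrc element 4: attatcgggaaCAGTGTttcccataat
A match describes the letters of the transcript and does not show that a protein was bound.

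Total counts ranged from 17369927 to 22076113 per library. Hepatocyte markers summed to between 46002 and 175360 counts per 1000000 reads (CPM, with library sizes scaled by TMM factors) in every library, and no marker of the cell type lists was at 0 in all libraries. Arntl, the gene symbol of Bmal1, had a median of 15.5 CPM in SPF WT, 11.6 in SPF LKO, 18.9 in GF WT and 10.1 in GF LKO, and swung between 0.626 and 39.5 CPM in SPF WT against 7.06 to 13.4 CPM in GF LKO. The gene count includes exons outside the deleted part, so it checks the deletion only in part. In 4 libraries, clock gene levels were unlike those of the other mice of their group, namely SPF WT ZT14 replicate 3 (Arntl), GF WT ZT6 replicate 3 (Arntl), SPF LKO ZT14 replicate 2 (Npas2) and SPF LKO ZT18 replicate 1 (Npas2). Npas2, which is high in LKO liver, stood at 0.221 CPM in the first of these SPF LKO libraries, where its other mice had 24.0 to 25.2 CPM, and at 1.83 CPM in the second, where they had 27.6 to 36.4 CPM. All libraries were kept under their labels, and where leaving one out changed a call, the value without it is given beside the result. P-values of the tests over time rest on the spread between mice of the same time. In comparisons of arms, and in the interaction of genotype and microbial state, times were pooled. The spread behind those p-values therefore also holds differences between times of day.

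Per kilobase of exon, Hamp was the most abundant of the 10 genes and Bmp6 the least. Median levels over all 72 libraries were 1220 CPM per kb for Hamp, 332 for Fth1, 68.2 for Trf, 24.0 for Hamp2, 16.8 for Slc40a1 and 8.11 for Tfrc. The 4 lowest were Id1 at 2.92, Ftl1 at 1.83, Smad7 at 1.52 and Bmp6 at 1.18 CPM per kb. Reads that fit several genes were left out of the counts, and this touched some genes far more than others. For Ftl1, 86.2% of the 50-base windows of its transcript also occur in other transcripts, chiefly ferritin pseudogenes, and its raw counts were only 10 to 145 per library. For Trf, 63.5% of exonic bases lie within an overlapping gene model on the same strand (Gm20425). Hamp and Hamp2 shared windows with each other, 16.6% and 19.5% respectively, while Tfrc, Slc40a1, Smad7 and Id1 shared none. The counts of Ftl1 and Trf thus come from a part of their transcripts, and their levels are uncertain.

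**Figure D1:**
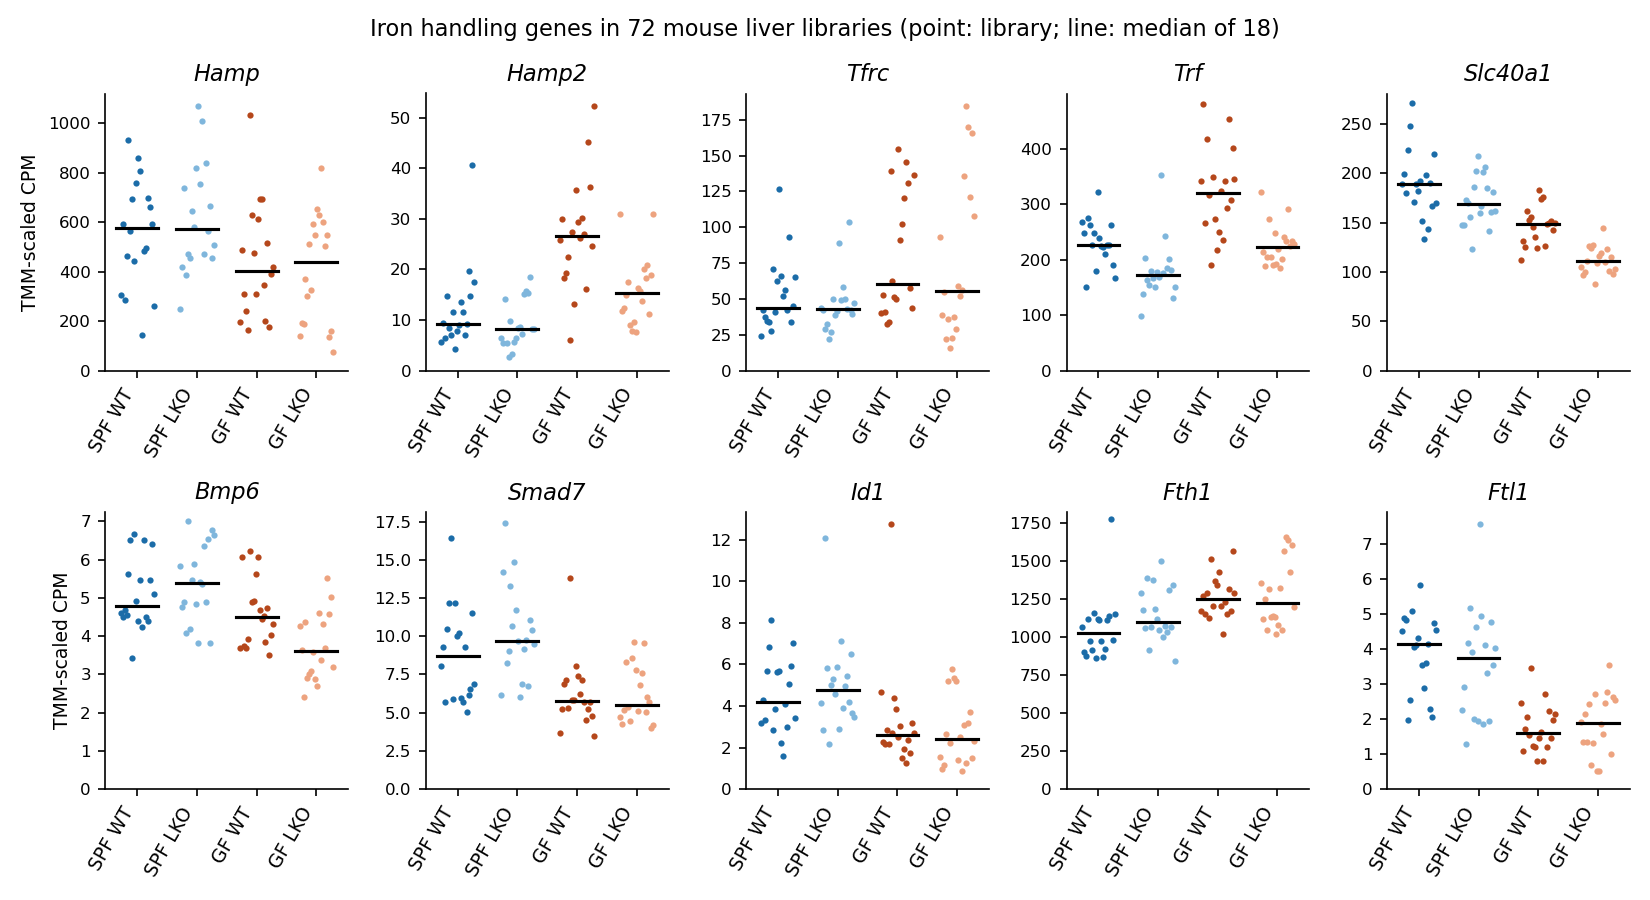
Level of each of the 10 genes in TMM-scaled CPM (vertical axes, linear from 0) in the 18 libraries of each arm (points), with the median as a line. Slc40a1 falls from a median of 189 CPM in SPF WT to 111 CPM in GF LKO, Hamp2 is highest in GF WT (26.6 CPM), and the ranges of the arms overlap for every gene.

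The comparison of GF with SPF mice asked how the absence of gut microbes bears on these genes, within each genotype and with all times pooled. In WT mice 7 of 10 passed the test, 4 higher (Hamp2, Tfrc, Trf, Fth1) and 3 lower (Slc40a1, Smad7, Ftl1) in GF. In LKO mice 9 of 10 passed, 3 higher (Hamp2, Tfrc, Trf) and 6 lower (Hamp, Slc40a1, Bmp6, Smad7, Id1, Ftl1). Among all genes, 31.8% of 12776 passed in WT (14.2% higher, 17.7% lower) and 36.4% of 13010 in LKO (18.1% higher, 18.4% lower). The median log2 fold change was -0.28 over the 10 genes in WT and -0.57 in LKO, against -0.02 over all genes tested in both. Genes were called at an adjusted p below 0.05 in the edgeR quasi-likelihood test, Benjamini-Hochberg adjusted over every gene tested, and are given with the standard error (SE) of each log2 fold change. In whole liver, a lower level can come from fewer cells of a type or from less RNA per cell, and these cannot be told apart.

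Hamp, the hepcidin gene (chr7:30942368-30944032, minus strand), was lower in GF LKO than in SPF LKO mice with times pooled. Its lowest, median and highest values were 143, 578 and 932 CPM in SPF WT, 249, 573 and 1071 in SPF LKO, 166, 405 and 1033 in GF WT, and 76.6, 438 and 819 in GF LKO. The GF medians lay below both SPF medians, with wide overlap. The log2 fold change between GF and SPF was -0.61 in LKO (SE 0.24, adjusted p = 0.0396, edgeR quasi-likelihood test, Benjamini-Hochberg adjusted), or 1.53-fold lower. In WT the same difference was -0.37 (SE 0.22, adjusted p = 0.196), and it became -0.55 with adjusted p = 0.0288 when SPF WT ZT14 replicate 3 and GF WT ZT6 replicate 3 were both left out. Those libraries held 143 CPM of Hamp against 806 and 858 in the other mice of their group, and 1033 CPM against 166 and 242. The LKO call was lost without the filter on low counts (adjusted p = 0.0641) and without the replicates numbered 1 (0.147) or 2 (0.199). By time, the GF LKO mean was farthest below the SPF LKO mean at ZT22 (124 against 542 CPM) and ZT2 (173 against 468 CPM). The 2 means were closest at ZT6 (394 against 437 CPM) and ZT18 (552 against 625 CPM).

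Hamp2, whose product is not known to regulate iron (chr7:30922372-30924681, minus strand), went the other way. Its lowest, median and highest values were 4.34, 9.30 and 40.7 CPM in SPF WT, 2.74, 8.31 and 18.6 in SPF LKO, 5.99, 26.6 and 52.3 in GF WT, and 7.71, 15.3 and 30.9 in GF LKO. GF WT stood highest, and its lowest value belonged to GF WT ZT6 replicate 3, whereas the other mice of that time had 19.4 and 22.4 CPM. Hamp2 rose in GF mice by 1.12 on the log2 scale in WT (SE 0.23, adjusted p = 0.000362) and by 0.80 in LKO (SE 0.21, adjusted p = 0.00318), both in the edgeR quasi-likelihood test, Benjamini-Hochberg adjusted. The WT call held in all 11 alternatives, with log2 fold changes from 1 to 1.23.

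Of the genes in the BMP signal to hepcidin, all 3 had lower medians in GF mice. Bmp6, the ligand (chr13:38345107-38500302, plus strand), had lowest, median and highest values of 3.43, 4.80 and 6.68 CPM in SPF WT, 3.81, 5.39 and 7.01 in SPF LKO, 3.50, 4.49 and 6.22 in GF WT, and 2.42, 3.60 and 5.53 in GF LKO. GF LKO mice were lowest. Bmp6 was 1.44-fold lower in GF LKO than in SPF LKO (log2 fold change -0.53, SE 0.10, adjusted p = 0.000123, edgeR quasi-likelihood test, Benjamini-Hochberg adjusted), and did not pass in WT (-0.18, SE 0.09, adjusted p = 0.122). Sinusoidal endothelial markers, genes of the cells that make BMP6, numbered 1 higher and 2 lower of 8 in each of these comparisons, namely Lyve1 against Kdr and Stab2 in WT and Lyve1 against Kdr and Fcgr2b in LKO. Their summed medians were 271 CPM in SPF WT (range 241 to 327), 262 in SPF LKO (190 to 334), 262 in GF WT (228 to 320) and 255 in GF LKO (217 to 274), and their part in the Bmp6 result was not tested.

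Smad7, an inhibitory SMAD that BMP signalling induces (chr18:75367529-75395935, plus strand), was lower in GF mice of both genotypes. Its lowest, median and highest values were 5.03, 8.68 and 16.5 CPM in SPF WT, 6.01, 9.72 and 17.4 in SPF LKO, 3.51, 5.78 and 13.8 in GF WT, and 4.03, 5.53 and 9.61 in GF LKO. The GF medians lay below both SPF medians and the ranges overlapped. Smad7 fell by 0.52 on the log2 scale in WT (SE 0.15, adjusted p = 0.00918) and by 0.72 in LKO (SE 0.14, adjusted p = 9.78e-05, edgeR quasi-likelihood test, Benjamini-Hochberg adjusted). The WT call was lost without the replicates numbered 1 (adjusted p = 0.072) or 2 (0.14). Id1, an inhibitor of basic helix-loop-helix factors and a direct BMP target (chr2:152736251-152737410, plus strand), had lowest, median and highest values of 1.60, 4.19 and 8.13 CPM in SPF WT, 2.18, 4.77 and 12.1 in SPF LKO, 1.26, 2.6 and 12.7 in GF WT, and 0.872, 2.41 and 5.76 in GF LKO. Its order of medians matched that of Hamp in putting both SPF arms above both GF arms. Id1 fell by 0.84 in LKO (SE 0.23, adjusted p = 0.00394, edgeR quasi-likelihood test, Benjamini-Hochberg adjusted). In WT, Id1 stood at -0.52 (SE 0.23, adjusted p = 0.0768). The highest GF WT value was GF WT ZT6 replicate 3, at 12.7 CPM against 2.17 and 2.85 in the other mice of that time, and without that library the log2 fold change was -0.80 with adjusted p = 0.000918. Without SPF WT ZT14 replicate 3 alone it was -0.57 with adjusted p = 0.0464.

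Slc40a1, the ferroportin gene (chr1:45908068-45926523, minus strand), was lower in GF mice of both genotypes. Its lowest, median and highest values were 134, 189 and 272 CPM in SPF WT, 124, 169 and 218 in SPF LKO, 112, 149 and 183 in GF WT, and 87.6, 111 and 145 in GF LKO. The medians descended in that order, with the most distant arms overlapping only between 134 and 145 CPM. The log2 fold change was -0.40 in WT (SE 0.08, adjusted p = 0.000105) and -0.62 in LKO (SE 0.06, adjusted p = 3.91e-09), or 1.32-fold and 1.54-fold lower (edgeR quasi-likelihood test, Benjamini-Hochberg adjusted). Ferroportin is made by hepatocytes and in large amounts by Kupffer cells, the liver macrophages. Of 8 Kupffer cell markers 0 passed in GF WT against SPF WT in the edgeR quasi-likelihood test or in DESeq2, with 4 at an unadjusted p below 0.05, and 2 were lower (Marco and Csf1r) in GF LKO against SPF LKO. Their median log2 fold changes were -0.21 and -0.17, and their summed level had a median of 315 CPM in SPF WT (range 231 to 588), 278 in SPF LKO (217 to 351), 296 in GF WT (197 to 377) and 246 in GF LKO (150 to 323). Their part in the Slc40a1 result was not tested.

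Trf and Tfrc, the carrier and its receptor, were both higher in GF mice with times pooled. Trf, plasma transferrin (chr9:103204001-103230444, minus strand), had lowest, median and highest values of 150, 227 and 323 CPM in SPF WT, 98.0, 173 and 354 in SPF LKO, 191, 320 and 481 in GF WT, and 185, 223 and 323 in GF LKO. GF WT was highest and SPF LKO lowest. Trf rose by 0.46 on the log2 scale in WT (SE 0.10, adjusted p = 0.000569) and by 0.34 in LKO (SE 0.10, adjusted p = 0.00834, edgeR quasi-likelihood test, Benjamini-Hochberg adjusted). The WT call was lost without the replicates numbered 2 (adjusted p = 0.0561), and the LKO call without those numbered 1 (0.0755) or 3 (0.0708). Of 6 hepatocyte markers, all of them genes of secreted plasma proteins, 5 were also higher in GF WT than in SPF WT, with a median log2 fold change of 0.41 over the list. In LKO 4 were higher and 1, Alb, was lower, also with a median of 0.41. Their part in the Trf result was not tested.

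Tfrc, the transferrin receptor (chr16:32608920-32632794, plus strand), ranged widely within each arm. Its lowest, median and highest values were 24.4, 43.6 and 127 CPM in SPF WT, 22.2, 42.9 and 104 in SPF LKO, 32.7, 60.3 and 155 in GF WT, and 15.7, 55.7 and 185 in GF LKO. Both GF arms reached higher maxima than both SPF arms. Tfrc rose by 0.61 on the log2 scale in WT (SE 0.23, adjusted p = 0.0369) and by 0.72 in LKO (SE 0.27, adjusted p = 0.0347, edgeR quasi-likelihood test, Benjamini-Hochberg adjusted). GF WT ZT6 replicate 3 held 139 CPM against 32.7 and 34.1 in the other mice, and without it the WT log2 fold change was 0.55 with adjusted p = 0.0606. The WT call was also lost without the replicates numbered 2 (adjusted p = 0.122) or 3 (0.255). The LKO call was lost without the filter on low counts (adjusted p = 0.0518), without the replicates numbered 1 (0.0738) or 2 (0.298), and with a block for time and replicate number (log2 fold change 0.45, adjusted p = 0.0987).

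The ferritin chains differed in direction. Fth1, the heavy chain with ferroxidase activity (chr19:9980598-9985098, plus strand), had lowest, median and highest values of 864, 1024 and 1776 CPM in SPF WT, 844, 1098 and 1501 in SPF LKO, 1019, 1251 and 1569 in GF WT, and 1019, 1225 and 1658 in GF LKO. The GF arms were higher, by less than any other gene that passed. Fth1 rose by 0.23 on the log2 scale in WT, 1.18-fold (SE 0.07, adjusted p = 0.00786, edgeR quasi-likelihood test, Benjamini-Hochberg adjusted), and the difference in LKO was 0.14 (SE 0.08, adjusted p = 0.14). The WT call was lost without the replicates numbered 2 (adjusted p = 0.162) or 3 (0.12). Ftl1, the light chain (chr7:45457944-45459884, minus strand), had lowest, median and highest values of 1.98, 4.14 and 5.84 CPM in SPF WT, 1.30, 3.74 and 7.57 in SPF LKO, 0.804, 1.60 and 3.46 in GF WT, and 0.519, 1.89 and 3.55 in GF LKO. Both GF medians were lower than both SPF medians. Ftl1 fell by 1.20 in WT (SE 0.17, adjusted p = 2.05e-06) and by 0.95 in LKO (SE 0.22, adjusted p = 0.000967, edgeR quasi-likelihood test, Benjamini-Hochberg adjusted). The LKO call was lost without the replicates numbered 1 (adjusted p = 0.0594). These values rest on the few reads that fit Ftl1 and none of the 17 other genes sharing its windows.

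**Figure D2:**
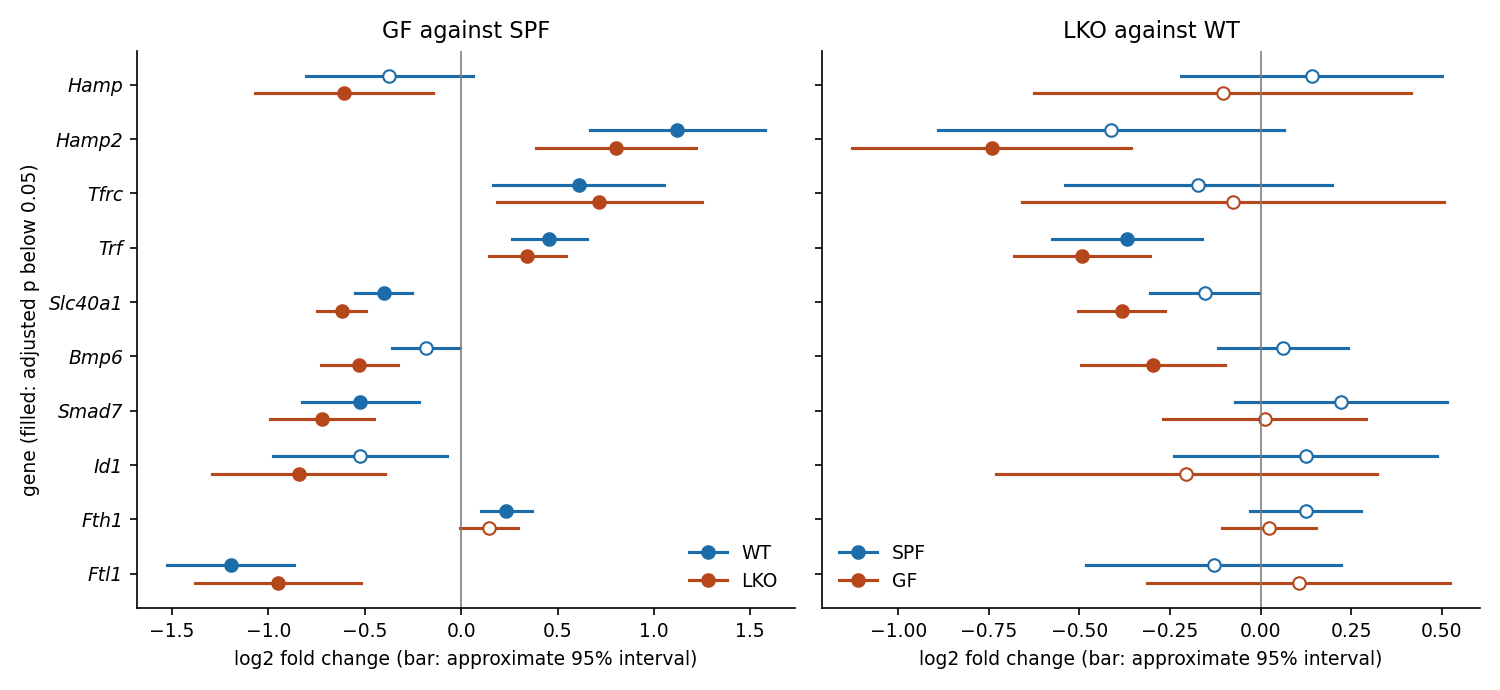
Log2 fold change (horizontal axes) of each gene for GF against SPF, left, in WT (blue) and LKO (orange), and for LKO against WT, right, in SPF (blue) and GF (orange). Bars are approximate 95% intervals and filled points have an adjusted p below 0.05. On the left 7 WT and 9 LKO points are filled, and on the right 1 SPF and 4 GF points.

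The comparison of LKO with WT asked what loss of hepatocyte Bmal1 does under each microbial state. In SPF mice 1 of 10 genes passed, Trf, which was lower, beside 23.1% of 13159 genes (11.6% higher, 11.5% lower). In GF mice 4 of 10 passed, and Hamp2, Trf, Slc40a1 and Bmp6 were all lower in LKO, beside 30.8% of 12662 genes (15.6% higher, 15.2% lower). Trf fell by 0.37 on the log2 scale in SPF LKO (SE 0.11, adjusted p = 0.00926) and by 0.49 in GF LKO (SE 0.10, adjusted p = 8.78e-05, edgeR quasi-likelihood test, Benjamini-Hochberg adjusted). SPF LKO ZT14 replicate 2, the library with WT-like Npas2, had 354 CPM of Trf against 169 and 176 in the other mice of that group. In SPF mice the call was lost without the replicates numbered 1 (adjusted p = 0.189) or those numbered 3 (adjusted p = 0.0826).

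Among GF mice, Slc40a1 was 1.30-fold lower with the knockout (log2 fold change -0.38, SE 0.06, adjusted p = 4.1e-06, edgeR quasi-likelihood test, Benjamini-Hochberg adjusted), and did not pass in SPF mice (-0.15, SE 0.08, adjusted p = 0.148). Kupffer cell markers were lower in LKO under both states, with 5 of 8 called in SPF mice (Vsig4, Cd5l, C1qa, Clec4f and Timd4, median log2 fold change over the list -0.26) and 4 of 8 in GF mice (Marco, C1qa, Timd4 and Csf1r, -0.24). The markers' part in the Slc40a1 result was not tested. Hamp2 fell by 0.74 on the log2 scale in GF LKO (SE 0.20, adjusted p = 0.00318), and in SPF mice its difference was -0.41 (SE 0.24, adjusted p = 0.23, edgeR quasi-likelihood test, Benjamini-Hochberg adjusted). Bmp6 fell by 0.30 in GF LKO (SE 0.10, adjusted p = 0.022), a call lost without the replicates numbered 2 (adjusted p = 0.077) or 3 (adjusted p = 0.215), and stood at 0.06 in SPF mice (SE 0.09, adjusted p = 0.674, edgeR quasi-likelihood test, Benjamini-Hochberg adjusted).

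Hepcidin itself did not pass between genotypes. The log2 fold change of Hamp was 0.14 in SPF mice, with an approximate 95% interval from -0.22 to 0.50, and -0.11 in GF mice, from -0.62 to 0.41. Fth1 had the narrowest intervals, -0.03 to 0.28 in SPF mice and -0.11 to 0.15 in GF mice. The other genes without a call in either state were Tfrc, Smad7, Id1 and Ftl1.

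Whether the genotype effect differed between GF and SPF mice was tested directly, as an interaction over all 72 libraries. Of the 10 genes 0 passed in the edgeR quasi-likelihood test and 0 in DESeq2. Over all 13484 genes, 0.438% passed in edgeR and 71 genes in DESeq2. Of the 10, 2 had an unadjusted p below 0.05. These were Bmp6, with a difference of -0.37 on the log2 scale (SE 0.14, adjusted p = 0.415), and Slc40a1, with -0.24 (SE 0.10, adjusted p = 0.566, edgeR quasi-likelihood test, Benjamini-Hochberg adjusted). The calls made in GF and missed in SPF mice were therefore not shown to differ between the microbial states.

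Time of day was tested within each arm, over the 6 sampled times. In GF LKO mice 5 of 10 genes passed (Hamp, Tfrc, Id1, Fth1 and Smad7), beside 26.7% of 13494 genes. In GF WT 1 passed (Slc40a1), beside 13.6% of 13203 genes. SPF LKO also had 1 (Tfrc), beside 5.3% of 14028 genes. In SPF WT 0 passed in the edgeR quasi-likelihood test, beside 7.06% of 13907 genes, while 3 had an unadjusted p below 0.05 and 3 passed in DESeq2. Over all genes DESeq2 called 2090 of the 13907 there, against 982 in edgeR. 

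Hamp in GF LKO mice was highest at ZT14, early in the dark phase, and lowest at ZT22. The 3 mice had 656, 631 and 819 CPM at ZT14, 137, 158 and 76.6 CPM at ZT22 and 141, 191 and 188 CPM at ZT2. The libraries of ZT14 and those of ZT22 and ZT2 did not overlap, and the means at ZT14 and ZT22 differed 5.66-fold (702 ± 102 against 124 ± 42.5 CPM, SD, n = 3). Over all times the change passed with adjusted p = 2.22e-05 in the edgeR quasi-likelihood test, Benjamini-Hochberg adjusted. In SPF LKO mice Hamp was also highest at ZT14, at 945 ± 167 CPM, and lowest at ZT6, at 437 ± 45.9 CPM (SD, n = 3), a ratio of 2.16. Over all times this did not pass in edgeR, and it passed in DESeq2 (adjusted p = 0.00824), with a 24 h cosine and sine (0.0184) and without the replicates numbered 2 (0.0443). GF WT mice had their highest Hamp mean at ZT14 too, 667 ± 45.3 CPM, and their lowest at ZT22, 329 ± 132 CPM (SD, n = 3), without overlap. The change over ZT there had adjusted p = 0.521 in edgeR, and 0.0514 without GF WT ZT6 replicate 3. For SPF WT the highest mean was at ZT6, with adjusted p = 0.82 over ZT in edgeR.

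Tfrc peaked later than Hamp in GF LKO mice. It averaged 164 ± 25.3 CPM at ZT18 and 24.7 ± 10.6 CPM at ZT6 there (SD, n = 3), 6.61-fold apart with no overlap, and passed over ZT with adjusted p = 2.22e-05 (edgeR quasi-likelihood test, Benjamini-Hochberg adjusted). In GF WT it was also highest at ZT18, at 132 ± 12.7 CPM, and lowest at ZT2, at 44.7 ± 7.14 CPM, but its ZT14 and ZT18 libraries overlapped. Both SPF arms had their highest mean at ZT14 and their lowest at ZT6. The SPF LKO means at ZT14 and ZT18 were nearly equal, at 65.7 ± 20.9 and 65.6 ± 33.1 CPM (SD, n = 3). The swings of the SPF arms were 2.55-fold in SPF WT and 2.42-fold in SPF LKO, with adjusted p = 0.0765 and 0.046 over ZT in edgeR. In SPF WT, Tfrc passed without SPF WT ZT14 replicate 3 (adjusted p = 0.034), in DESeq2 (0.00329) and with a 24 h cosine and sine (0.00704). In SPF LKO the call was lost without the replicates numbered 1 (0.18), 2 (0.118) or 3 (0.327). The ZT6 mean of GF WT, 68.6 ± 61.1 CPM, held the library with 139 CPM, and without it Tfrc also passed over ZT in GF WT (adjusted p = 0.00105). The test of a difference between GF and SPF time courses of Tfrc did not pass in edgeR (adjusted p = 0.778 in WT and 0.0543 in LKO).

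The BMP targets Id1 and Smad7 had their highest means at ZT10 in GF LKO mice, 1 sampled time before that of Hamp. This order was not tested. Id1 averaged 5.44 ± 0.292 CPM at ZT10 and 1.22 ± 0.295 CPM at ZT2 (SD, n = 3), 4.46-fold apart (adjusted p = 0.00724 over ZT). Smad7 averaged 8.67 ± 0.900 CPM at ZT10 and 4.65 ± 0.915 CPM at ZT22 (SD, n = 3), 1.87-fold apart (adjusted p = 0.048 over ZT, edgeR quasi-likelihood test, Benjamini-Hochberg adjusted). Its libraries at ZT10 and ZT18 overlapped, at 7.81 to 9.61 and 5.02 to 9.53 CPM. Id3, another BMP target, also passed over ZT in GF LKO (adjusted p = 0.000401, same test). Bmp6 did not pass over ZT in any arm. Among the iron-responsive element genes, Fth1 in GF LKO mice was highest at ZT18, as Tfrc was, at 1621 ± 47.6 CPM, and lowest at ZT10, at 1097 ± 67.7 CPM (SD, n = 3, adjusted p = 0.00944 over ZT). The calls of Id1, Smad7 and Fth1 were each lost without the replicates numbered 3 and without 1 other number, while those of Hamp and Tfrc held without any one number. In edgeR, Slc40a1 passed over ZT in GF WT alone (adjusted p = 0.00613), with 177 ± 4.84 CPM at ZT14 and 123 ± 9.87 CPM at ZT2 (SD, n = 3, edgeR quasi-likelihood test, Benjamini-Hochberg adjusted). That call was lost without the replicates numbered 1 (0.116), 2 (0.153) or 3 (0.13) and with a 24 h cosine and sine (0.159). In SPF WT its highest mean was at ZT6, 248 ± 24.2 CPM, and DESeq2 called its change over ZT there (adjusted p = 0.0166).

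**Figure D3:**
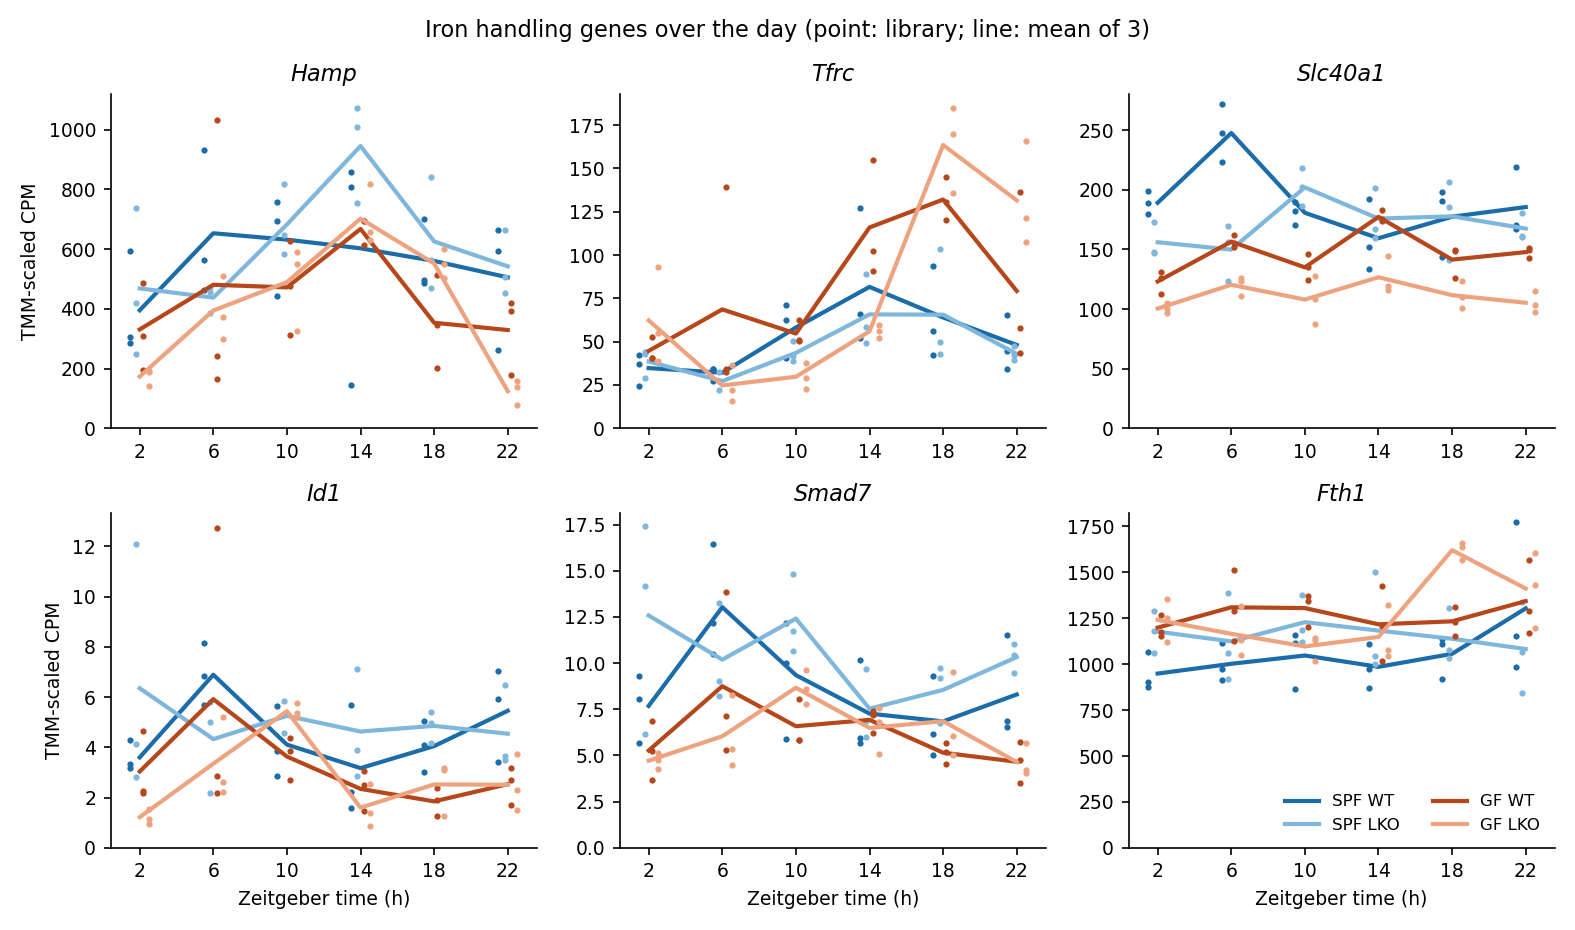
Levels of 6 iron handling genes in TMM-scaled CPM (vertical axes) at ZT2 to ZT22 (horizontal axes, h), with a point per library and a line through the means of 3 mice for each arm. In GF LKO mice Hamp peaks at ZT14 (702 CPM) and is lowest at ZT22 (124 CPM), and Tfrc peaks at ZT18 (164 CPM).

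The time courses of arms were then compared directly, as an interaction of arm and time. Between GF LKO and GF WT mice 1 of 10 genes passed, Tfrc (adjusted p = 0.0488, edgeR quasi-likelihood test, Benjamini-Hochberg adjusted), beside 3.48% of 13806 genes. This call was lost with a replicate block (adjusted p = 0.0682) and without the replicates numbered 1 (0.45) or 2 (0.119). Without GF WT ZT6 replicate 3 it stood at adjusted p = 0.0289, and Hamp also passed, at 0.0119. In the other comparisons 0 of 10 passed in the edgeR quasi-likelihood test, beside 0.0071% of 14090 genes for GF WT against SPF WT, 0.0492% of 14234 for GF LKO against SPF LKO and 0.305% of 14442 for SPF LKO against SPF WT. With an unadjusted p below 0.05 there were 1, 5 and 1 of the 10, and DESeq2 called 1, 2 and 1. Over all genes DESeq2 called more than edgeR did, at 41 of 14090, 326 of 14234 and 197 of 14442. For GF LKO against SPF LKO the 2 genes that DESeq2 called were Hamp (adjusted p = 0.000273) and Tfrc (0.000951), which had adjusted p = 0.0715 and 0.0543 in edgeR. Tfrc also passed with a 24 h cosine and sine (0.00236).

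Other genes of iron biology were read from 6 lists. In the list of BMP and iron sensing, which act on hepcidin, 1 of 18 was higher and 2 lower in GF WT against SPF WT, and 1 higher and 6 lower in GF LKO against SPF LKO. Among all genes 31.8% and 36.4% were called, so that the share called in the list, 3 and 7 of 18, was below and near that background. The median log2 fold change over the list was -0.07 in both. The BMP target Id3 was among those that fell, by 0.82 on the log2 scale in WT (SE 0.32, adjusted p = 0.048) and by 1.08 in LKO (SE 0.20, adjusted p = 6.8e-05, edgeR quasi-likelihood test, Benjamini-Hochberg adjusted). Its medians were 29 CPM in SPF WT, 48.2 in SPF LKO, 15.8 in GF WT and 23.2 in GF LKO. Id2 and Smad6 also fell in GF LKO against SPF LKO, by 0.37 and 0.39. Tmprss6, the protease that dampens BMP signalling to Hamp, had no call between GF and SPF mice (log2 fold changes 0.01 and 0.09) and was higher with the knockout, by 0.35 in SPF mice (SE 0.05, adjusted p = 2.75e-07) and by 0.43 in GF mice (SE 0.04, adjusted p = 6.73e-11, edgeR quasi-likelihood test, Benjamini-Hochberg adjusted). Between genotypes 3 of the 18 were higher and 2 lower in SPF LKO, and 2 higher and 3 lower in GF LKO. Over all genes 23.1% were called between genotypes in SPF and 30.8% in GF mice, so these counts were near the background.

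Inflammation raises hepcidin through IL-6 and STAT3, and of the 10 genes tested from that list of 11, 3 fell and 0 rose in GF WT against SPF WT. In GF LKO against SPF LKO 4 fell and 1 rose, in SPF LKO against SPF WT 4 fell and 0 rose, and in GF LKO against GF WT 5 fell and 0 rose. Over all genes 31.8%, 36.4%, 23.1% and 30.8% were called, so the count of 3 of 10 in GF WT against SPF WT was near the background. The median log2 fold changes were -0.63, -0.42, -0.60 and -0.40, each farther below 0 than the median of all genes tested. Saa3, an acute-phase serum amyloid, fell in all 4 comparisons, by 1.40, 0.77, 1.55 and 0.92 on the log2 scale, from a median of 4 CPM in SPF WT to 2.29 in SPF LKO, 2.16 in GF WT and 1.27 in GF LKO. Saa2 fell in 3 of the 4, by 1.14 in GF WT against SPF WT and, between genotypes, by 1.61 in SPF and 1.35 in GF mice. Its medians in SPF WT and GF WT were close, 22.2 and 20.4 CPM, while the highest values were 236 and 64.5 CPM. The neutrophil genes S100a8 and S100a9 were lower in GF mice too, by 1.30 and 1.33 in WT and by 1.28 and 1.17 in LKO, and the part of such cells in the list was not tested.

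Among 6 genes of the iron regulatory proteins and ferritin turnover, 3 fell in LKO under either microbial state, and these were the same genes: Aco1 and Ireb2, which encode the iron regulatory proteins, and Fbxl5, which marks them for degradation. Aco1 fell by 0.19 on the log2 scale in SPF LKO (SE 0.07, adjusted p = 0.0418) and by 0.48 in GF LKO (SE 0.07, adjusted p = 2.49e-07, edgeR quasi-likelihood test, Benjamini-Hochberg adjusted). Its medians were 241 CPM in SPF WT, 212 in SPF LKO, 290 in GF WT and 200 in GF LKO. By microbial state, Aco1 alone of the 6 passed in WT, where it was 0.19 higher in GF mice (adjusted p = 0.0437, edgeR quasi-likelihood test, Benjamini-Hochberg adjusted). In LKO 0 passed in edgeR and 0 in DESeq2, and 1 had an unadjusted p below 0.05. Over all genes, 23.1% were called between genotypes in SPF and 30.8% in GF mice. Between microbial states the shares were 31.8% in WT and 36.4% in LKO.

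Of 7 genes tested from the list of 9 for iron uptake and reduction, 1 was lower in GF mice of either genotype, and between genotypes 2 were higher and 1 lower under either microbial state. The shares called over all genes were 31.8% (WT) and 36.4% (LKO) between microbial states, and 23.1% (SPF) and 30.8% (GF) between genotypes. The gene that fell was Steap2, a metalloreductase, by 0.45 and 0.67 on the log2 scale in GF WT and GF LKO against their SPF arms, and by 0.96 and 1.19 in SPF LKO and GF LKO against their WT arms. Its medians ran from 10.9 CPM in SPF WT and 7.97 in GF WT to 4.97 in SPF LKO and 3.40 in GF LKO. Scara5, a ferritin receptor, and Slc39a8, a metal ion carrier, rose in LKO, by 0.89 and 0.22 in SPF mice and by 0.85 and 0.30 in GF mice. Tfrc, which brings in iron bound to transferrin, had no call between genotypes.

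Among 6 genes of iron export, plasma oxidation and scavenging, 1 rose and 1 fell in GF WT against SPF WT, 3 rose and 2 fell in GF LKO against SPF LKO, and 1 rose and 1 fell between genotypes under either state. Beside these counts, 31.8% and 36.4% of all genes were called between microbial states in WT and LKO. Between genotypes 23.1% were called in SPF and 30.8% in GF mice. Cp, which encodes ceruloplasmin, the plasma ferroxidase that works with ferroportin, rose in all 4 comparisons, by 0.17 in GF WT and 0.33 in GF LKO against their SPF arms, and by 0.53 in SPF and 0.69 in GF mice between genotypes. Its medians were 1393 CPM in SPF WT, 2069 in SPF LKO, 1567 in GF WT and 2509 in GF LKO, so that the arm with the least Slc40a1 had the most Cp. Haptoglobin (Hp), which binds free haemoglobin, fell in LKO by 0.38 in SPF and 0.31 in GF mice. Cd163, the macrophage receptor for the haptoglobin complex, fell in GF mice by 0.31 in WT and 0.35 in LKO.

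Of 8 mitochondrial iron genes tested from 9, 3 rose and 1 fell in GF mice of either genotype, 1 rose in SPF LKO, and 2 fell in GF LKO against GF WT. All genes were called at 31.8% (WT) and 36.4% (LKO) between microbial states, and at 23.1% (SPF) and 30.8% (GF) between genotypes. Slc25a37, mitoferrin 1, which carries iron into mitochondria, fell by 0.51 on the log2 scale in GF WT (SE 0.11, adjusted p = 0.000791) and by 0.99 in GF LKO (SE 0.10, adjusted p = 9.2e-10, edgeR quasi-likelihood test, Benjamini-Hochberg adjusted) against their SPF arms. Its medians were 50.9 CPM in SPF WT, 48.3 in SPF LKO, 38.3 in GF WT and 23.6 in GF LKO. Cisd1, an iron-sulfur protein of the outer membrane, rose in GF mice by 0.39 in WT and 0.31 in LKO. Erythroid markers, whose cells use mitoferrin 1 and Tfrc heavily, had 1 higher and 1 lower of 5 tested in GF WT against SPF WT and 2 lower in GF LKO against SPF LKO. Their summed level was 182 to 525 CPM in SPF WT, 129 to 716 in SPF LKO, 206 to 368 in GF WT and 144 to 324 in GF LKO, and its part in these results was not tested. For the interaction of genotype and microbial state, 0 genes passed in any of the 6 lists in the edgeR quasi-likelihood test or in DESeq2, and 4 (Slc25a37, Aco1, Glrx5 and Lcn2) had an unadjusted p below 0.05.

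**Figure D4:**
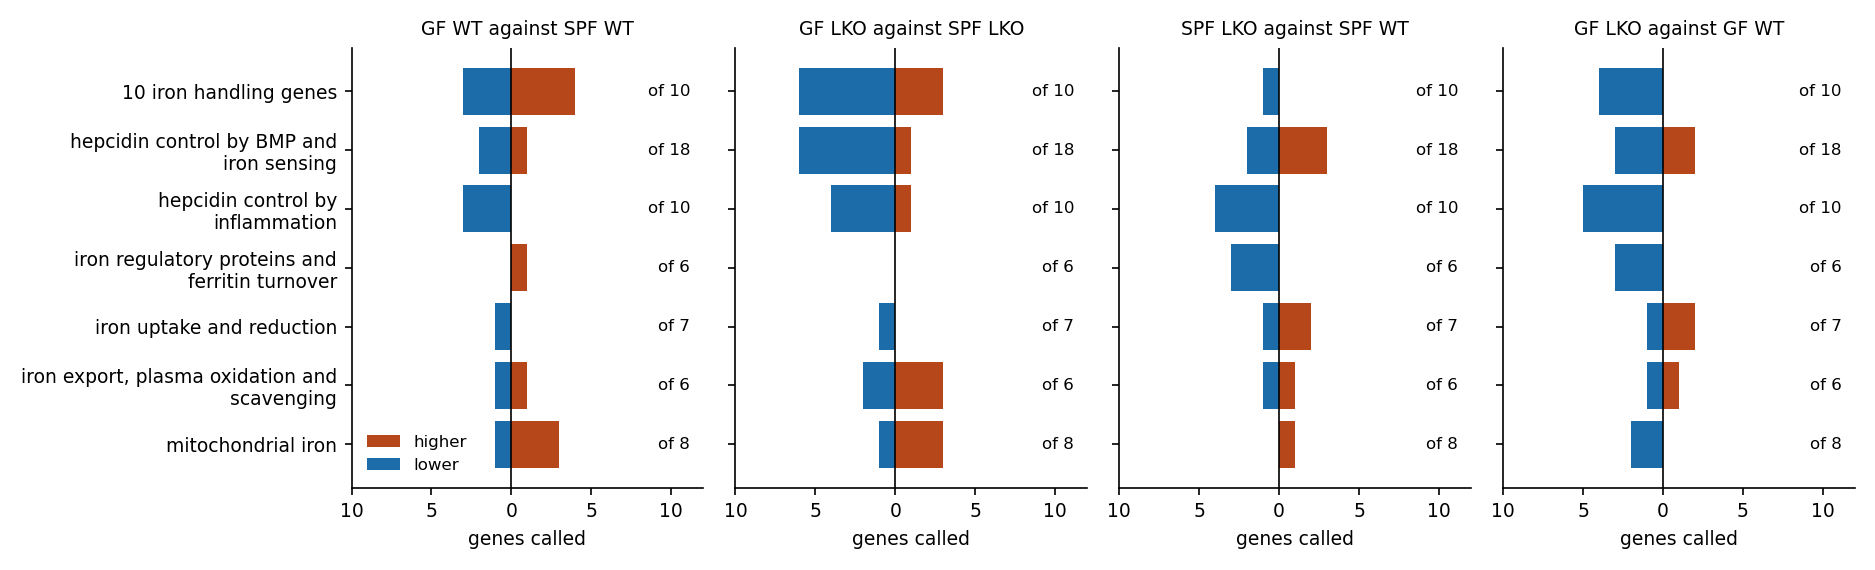
Number of genes called higher (orange, right of 0) and lower (blue, left of 0) in each of the 4 comparisons, for the 10 iron handling genes and 6 further lists, with the number tested at the right. In GF LKO against SPF LKO 6 of the 10 genes are lower and 3 higher, and all 4 called in GF LKO against GF WT are lower.

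Across libraries within an arm, 20 relations between Hamp, Hamp2, Bmp6, Id1 and Smad7 were computed on log2 CPM. Mice of an arm share times of day, so a relation within an arm includes the time course. Hamp rose with Bmp6 in GF WT (Pearson's r = 0.74, p = 0.00063, adjusted p = 0.0063, and Spearman's rho = 0.76, p = 0.00051, adjusted p = 0.0051, two-sided permutation tests with 100000 resamples, n = 18). Without the 2 libraries farthest from the median of the first gene r was 0.67. In the other arms r was 0.13 in SPF WT, -0.31 in SPF LKO and -0.04 in GF LKO, none past the threshold. Id1 and Smad7 rose together in SPF WT (r = 0.74, p = 0.00049, adjusted p = 0.0063, and rho = 0.79, p = 0.00024, adjusted p = 0.0048, same permutation test), with r = 0.66 without the 2 farthest libraries. Elsewhere r of this pair was 0.22 in SPF LKO, 0.47 in GF WT and 0.54 in GF LKO, none past the threshold after adjustment. Without the 2 farthest libraries it was -0.16, -0.24 and 0.66 in these arms. Hamp and Smad7 in GF LKO had r = 0.59 (p = 0.00992, adjusted p = 0.0496) but rho = 0.55 (p = 0.0193, adjusted p = 0.0965, same permutation test). Hamp and Id1 in SPF WT had r = 0.59 (p = 0.00975, adjusted p = 0.0496) and rho = 0.38 (p = 0.12, adjusted p = 0.4, same permutation test), and r dropped to 0.31 without the 2 farthest libraries, on which that relation rests. Hamp and Hamp2, for all the likeness of their promoters, had r between -0.36 and 0.24 in the 4 arms.

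As a description over the 24 group means, with no test, the closest pairs among the 10 genes were Smad7 and Id1 (r = 0.81), Slc40a1 and Bmp6 (0.76) and Hamp2 and Trf (0.69). Among 11842 genes, the patterns most like that of Hamp were those of Foxp4 (r = 0.779), Slc9a3r2 (0.766) and Disp2 (0.764). Tfrc had closer company, in Opa3 (0.902), Dnajb11 (0.879) and Serp1 (0.867).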

How the data were processed

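Whole livers were flash frozen, RNA was extracted with TRIzol, and libraries were made with a stranded mRNA kit. The deposited values are raw counts per Ensembl gene, 1 column per library. The authors aligned single-end 50-base reads with STAR 2.6.1b to mm10 and made the counts with featureCounts 2.0.0 on Ensembl 97 exons, leaving out reads of several positions or genes. Counting ignored strand, so reads of overlapping genes on opposite strands (Hamp2, Bmp6, Ftl1) are also left out.

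From these counts, edgeR 4.0.16 (R 4.3.3) with TMM factors and its filter on low counts gave quasi-likelihood tests. They compared 36 libraries per pair of arms with times pooled, 72 for the interaction, 18 for ZT within an arm and 36 for the difference of time courses. P-values were Benjamini-Hochberg adjusted over all genes tested, with a threshold of 0.05. CPM are TMM-scaled. Approximate 95% intervals are the log2 fold change plus or minus the normal quantile times its SE. All 10 genes passed the filter in each comparison. On simulated counts, 80.5% of genes changed by 0.5 and 98.9% of those changed by 1 on the log2 scale were recovered in GF WT against SPF WT, and 61.1% and 90.2% for the interaction. Over ZT in GF LKO, with 3 mice per time, 58.3% of genes given a change of 1 and 5.4% of those given 0.5 were recovered. The simulated counts held no difference between times of day apart from the changes given. The real comparisons of arms and their interaction pooled times, so real genes that vary over the day may be recovered less often.

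The genes and the lists beside them were chosen with earlier results of these data known. Named in the text were the 10 genes, the 4 called genes with the largest change of each iron list, and the 3 genes most like Hamp and Tfrc over group means of at least 1 CPM. Marker genes were to be given by list, and those named singly were chosen after their values were seen. Groups came from the sample labels. The same replicate numbers occur in every group, but same-numbered mice did not deviate together: the median correlation of their deviations was -0.02 to 0.02, and 2 to 5 of 18 pairs exceeded 0.1, so the numbers were not taken as pairs. Alternatives were DESeq2 1.42.0, RLE factors, no filter on low counts, ZT as an additive factor, a 24 h cosine and sine, a replicate block, and leaving out each replicate number or the libraries with unlike clock gene levels. Promoters came from RefSeq and stem-loops from GENCODE transcripts. No promoter was read for Smad7, Id1, Slc40a1 or Trf.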

Additional observations from a re-analysis of the deposited data

Results flagged for a closer look

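The time courses of 3 genes differed between GF LKO and GF WT mice by the test of the difference itself, an interaction of genotype and time in the edgeR quasi-likelihood test, Benjamini-Hochberg adjusted. Tfrc passed with adjusted p = 0.0488: GF WT mice averaged 68.6 ± 61.1 CPM at ZT6 and GF LKO mice 24.7 ± 10.6 CPM, while at ZT18 the means were 132 ± 12.7 and 164 ± 25.3 CPM (SD, n = 3). The ZT6 mean of GF WT includes replicate 3, at 139 CPM against 32.7 and 34.1 CPM, and without that library the adjusted p was 0.0289, whereas with a replicate block it was 0.0682. Aco1, which encodes an iron regulatory protein that is also the cytosolic aconitase, passed with adjusted p = 0.0421. In GF WT mice it averaged 236 ± 19.5 CPM at ZT6 and 362 ± 10.1 CPM at ZT18, with no overlap, and in GF LKO mice it stood between 185 ± 6.40 CPM at ZT10 and 230 ± 8.63 CPM at ZT2. Slc25a37, mitoferrin 1, passed with adjusted p = 0.0175. It averaged 25.9 ± 4.72 CPM at ZT2 and 45.9 ± 4.06 CPM at ZT18 in GF WT, and 29.4 ± 4.95 and 28.6 ± 5.58 CPM at the same times in GF LKO, where its lowest mean was 16.5 ± 1.64 CPM at ZT10. At ZT6, GF WT replicate 3 had 57.5 CPM of Slc25a37 against 24.1 and 29.9 CPM in the other mice.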

How the results depend on the processing

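No called log2 fold change of the 10 genes changed sign under the alternatives run: 515 values kept their sign and their side of the threshold, 7 gained a call, 23 lost one, and 15 values not past the threshold changed sign. Leaving out a replicate number or a library, the log2 fold changes concerned ranged in SPF LKO against SPF WT from -0.09 to 0.3 for Id1 and from -0.31 to 0.07 for Ftl1. In GF LKO against GF WT they ranged from -0.16 to 0.01 for Hamp, -0.26 to 0.13 for Tfrc, -0.11 to 0.2 for Smad7, -0.38 to 0.11 for Id1, -0.01 to 0.06 for Fth1 and -0.19 to 0.33 for Ftl1. For the interaction they ranged from -0.18 to 0.4 for Tfrc, -0.22 to 0.02 for Trf and -0.03 to 0.64 for Ftl1, and Tfrc stood at -0.01 with ZT as an additive factor and Id1 at 0.03 without the 4 libraries of unlike clock gene levels. The cause was not tested. Without all mice of replicate number 1, 2 or 3, the number of genes called was 3 to 6 of 10 (7 with all mice) in GF WT against SPF WT, 5 to 8 (9) in GF LKO against SPF LKO, 0 to 1 (1) in SPF LKO against SPF WT and 3 to 4 (4) in GF LKO against GF WT. Over ZT it was 0 to 1 in SPF LKO and in GF WT (1 in each) and 2 to 4 in GF LKO (5), and for the time course of GF LKO against GF WT 0 to 1 (1). These fits hold fewer mice, and the calls over all genes fell as well. In GF WT against SPF WT they were 1674 of 12639 without replicate number 2, against 4069 of 12776 with all mice. With DESeq2 the counts over ZT were 3 in SPF WT and 3 in SPF LKO, and for time courses 1 in GF WT against SPF WT, 2 in GF LKO against SPF LKO and 1 in SPF LKO against SPF WT. Over all genes DESeq2 called 2090 of 13907 and 2063 of 14028 over ZT in these arms, against 982 and 744 in edgeR. For these time courses it called 41 of 14090, 326 of 14234 and 197 of 14442. Without the filter on low counts the counts of the 10 genes were 6 in SPF WT, 6 in SPF LKO and 7 in GF WT over ZT, and 4, 6, 5 and 4 for the time courses of GF WT and GF LKO against their SPF arms and of SPF LKO and GF LKO against their WT arms. Over all genes that setting called 2730 of 29085, 2733 of 29414 and 3148 of 27500 over ZT. For the time courses it called 904 of 30827, 1437 of 31202, 1235 of 31634 and 1641 of 30204, in the same order. The cause was not tested. With a 24 h cosine and sine the counts of the 10 genes were 1 in SPF WT, 3 in SPF LKO and 2 in GF WT, and 1 for the time course of GF LKO against SPF LKO. Beside these stood 2087 of 13907, 2971 of 14028, 3523 of 13203 and 634 of 14234 over all genes. Leaving out SPF WT ZT14 replicate 3 gave 1 over ZT in SPF WT, beside 1242 of 14195 over all genes. Leaving out GF WT ZT6 replicate 3 gave 2 over ZT in GF WT and 2 for the time course of GF LKO against GF WT. Over all genes these were 2418 of 13436 and 568 of 14065.

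A replicate block left 0 genes for the time course of GF LKO against GF WT, beside 439 of 13806 over all genes. As a block by time and number, it gave 8 genes in GF WT against SPF WT, where Id1 gained a call (log2 fold change -0.62, adjusted p = 0.00603, edgeR quasi-likelihood test, Benjamini-Hochberg adjusted), and 8 in GF LKO against SPF LKO, where Tfrc lost it, and left the other counts at 1, 4 and 0. Over all genes that block called 4540 of 12776 and 5046 of 13010 in the first 2 comparisons. For the other counts it called 3570 of 13159, 4491 of 12662 and 67 of 13484. Raw counts per library were lowest for Ftl1 (10 to 145), Id1 (16 to 260) and Bmp6 (46 to 169), and were at least 1435 for Hamp and 16479 for Fth1, while the SE of Hamp, 0.18 to 0.26 over the 4 comparisons, was not below that of Bmp6, 0.09 to 0.10.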
